A study of Mus musculus with 4 samples.

Results

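The regions described here were 4988 sites of open chromatin present in both Med23-deficient and control hematopoietic stem cells (HSCs). They lay between annotated genes and away from the coding start sites of the annotation used. They were the KO peaks on the autosomes that shared at least 1 bp with a WT peak, whose KO summit lay inside no annotated gene (GENCODE M21, mm10) and 2.5 to 100 kb from the nearest start site of a coding gene. They made up 17.2% of the 28978 shared KO peaks on the autosomes and were drawn from 37639 KO peaks in all. Members were chosen by their presence in both peak lists, so that their sharing, and every KO to WT value given for them, is a description and not a test. Of the 6886 KO peaks in the same position class, 72.4% were shared with WT, beside 70.2% of intronic distal peaks and 93.8% of promoter peaks.

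ATAC-seq, which marks open DNA by the insertion of transposase adapters, was performed on bone marrow HSCs from C57BL/6 mice. The WT group carried floxed Med23 alleles without cre, and the KO group carried the same floxed alleles with Mx1-cre, a cre that is driven by an inducible promoter active in many tissues and is switched on with poly(I:C), so that the cre transgene itself differed between the groups. Each genotype had 2 samples of 5000 sorted cells but 1 deposited peak list, so no value here has a replicate check. Med23 is a subunit of Mediator, the complex that links transcription factors to RNA polymerase II.

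Open sites between genes include enhancers, insulators and unannotated promoters. Enhancers are bound by combinations of lineage transcription factors and can act on a promoter over long distances, often skipping the nearest gene. In HSCs, factors of the ETS, RUNX, GATA, SCL/TAL1, MEIS and HOX families occupy many such sites, PU.1 and C/EBP factors mark myeloid enhancers, and CTCF binds insulators and the anchors of chromatin loops. The nearest coding gene is used below as a position label for a site and not as its target.

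The sequences of 11 sites carry the patterns described in the following paragraphs. Each is the 200 bp centred on the KO summit, 5′ to 3′ on the plus strand of GRCm38.p6 (mm10), named by the nearest coding gene. Capitals mark matches, on either strand, to the letters searched for GATA, PU.1, ETS, RUNX, C/EBP, AP-1, CTCF, the SCL E-box and the tRNA B box. The Itgam, Car2, Tek and Lmo2 sites show how the letters of hematopoietic factors sat together. The Snx5, Rasgrf1 and Thnsl1 sites had high KO to WT ratios and the Rxrg site a low one. The Hfe2 site lay on a tRNA gene, and the Riok2 and Zfp960 sites were near copies of each other.
Itgam, chr7:128048878-128049077: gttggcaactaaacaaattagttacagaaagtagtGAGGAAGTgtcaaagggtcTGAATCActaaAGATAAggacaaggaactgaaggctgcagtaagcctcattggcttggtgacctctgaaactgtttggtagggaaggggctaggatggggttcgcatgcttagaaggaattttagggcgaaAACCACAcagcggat
Car2, chr3:14880435-14880634: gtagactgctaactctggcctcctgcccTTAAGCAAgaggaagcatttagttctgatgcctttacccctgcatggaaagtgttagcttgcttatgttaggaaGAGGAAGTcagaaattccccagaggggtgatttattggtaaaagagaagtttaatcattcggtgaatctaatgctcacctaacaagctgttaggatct
Tek, chr4:94711115-94711314: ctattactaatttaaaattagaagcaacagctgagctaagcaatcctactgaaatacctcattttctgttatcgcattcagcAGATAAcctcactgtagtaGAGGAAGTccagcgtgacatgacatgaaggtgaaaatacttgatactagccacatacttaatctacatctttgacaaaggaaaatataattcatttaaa
Lmo2, chr2:103930868-103931067: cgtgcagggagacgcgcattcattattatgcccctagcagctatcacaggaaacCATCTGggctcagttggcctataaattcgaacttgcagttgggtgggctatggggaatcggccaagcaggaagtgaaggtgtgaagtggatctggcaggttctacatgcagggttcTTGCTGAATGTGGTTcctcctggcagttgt
Snx5, chr2:144245453-144245652: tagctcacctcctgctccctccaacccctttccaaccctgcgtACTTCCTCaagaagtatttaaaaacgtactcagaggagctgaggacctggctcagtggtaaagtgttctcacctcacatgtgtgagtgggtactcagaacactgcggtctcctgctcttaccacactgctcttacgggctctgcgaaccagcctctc
Rasgrf1, chr9:89892689-89892888: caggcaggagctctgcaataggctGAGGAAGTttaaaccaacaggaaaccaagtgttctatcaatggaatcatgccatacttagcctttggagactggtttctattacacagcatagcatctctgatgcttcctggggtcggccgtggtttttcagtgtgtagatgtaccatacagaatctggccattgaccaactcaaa
Thnsl1, chr2:21223044-21223243: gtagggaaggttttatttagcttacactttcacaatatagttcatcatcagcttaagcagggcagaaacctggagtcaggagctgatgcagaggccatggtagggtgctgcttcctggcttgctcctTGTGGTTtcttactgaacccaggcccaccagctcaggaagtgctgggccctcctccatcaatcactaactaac
Rxrg, chr1:167551694-167551893: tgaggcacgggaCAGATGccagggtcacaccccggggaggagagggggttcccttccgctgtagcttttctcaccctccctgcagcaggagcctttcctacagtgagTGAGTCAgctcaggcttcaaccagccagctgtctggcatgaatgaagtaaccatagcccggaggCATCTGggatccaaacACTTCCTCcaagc
Hfe2, chr3:96499474-96499673: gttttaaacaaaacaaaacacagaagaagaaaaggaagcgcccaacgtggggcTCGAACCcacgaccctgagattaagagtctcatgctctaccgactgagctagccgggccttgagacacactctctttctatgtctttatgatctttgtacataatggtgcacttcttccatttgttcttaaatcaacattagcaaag
Riok2, chr17:17294142-17294341: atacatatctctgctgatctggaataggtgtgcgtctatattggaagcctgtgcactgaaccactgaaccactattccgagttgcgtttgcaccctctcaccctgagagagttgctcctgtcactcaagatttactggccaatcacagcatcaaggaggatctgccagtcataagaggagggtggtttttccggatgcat
Zfp960, chr17:17004829-17005028: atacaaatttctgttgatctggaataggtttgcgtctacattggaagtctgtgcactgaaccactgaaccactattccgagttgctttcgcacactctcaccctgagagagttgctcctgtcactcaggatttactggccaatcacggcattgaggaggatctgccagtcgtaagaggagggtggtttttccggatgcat

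The sites were spread over the full range of distances. The median distance to the nearest coding start site was 25.0 kb. Since more sequence lies far from genes than near them, counts were set against the intergenic sequence that met the same position limits, 546 Mb in all. The density was 9.14 sites per Mb over that sequence. It was 7.89 per Mb at 2.5 to 5 kb (291 sites), 9.98 at 5 to 10 kb (666), 10.7 at 10 to 25 kb (1537), 8.89 at 25 to 50 kb (1245) and 7.86 at 50 to 100 kb (1249). The density thus differed little with distance and was highest at 10 to 25 kb. Of all sites, 64.2% (95% CI 62.9 to 65.6) lay upstream of the nearest start site, beside 66.4% of the eligible sequence. By chromosome, the density ran from 6.66 sites per Mb on chromosome 14 to 10.9 on chromosome 12.

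**Figure D1:**
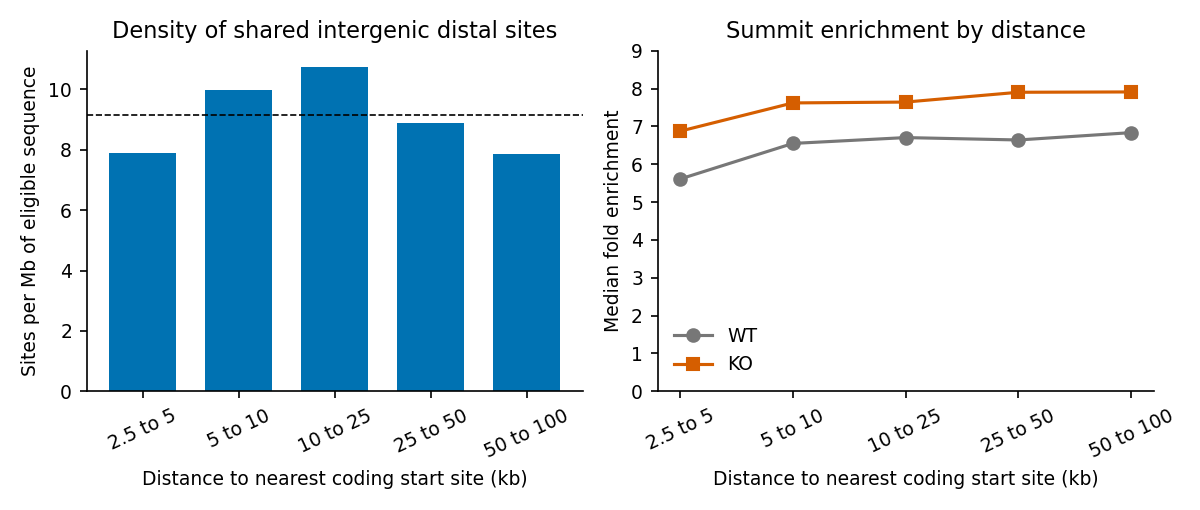
Left, shared intergenic distal sites per Mb of eligible intergenic sequence in 5 bins of distance to the nearest coding start site in kb, with the value over all bins as a dashed line. Right, the median fold enrichment at the summit in the WT list (circles) and the KO list (squares) for the same bins. The density was highest at 10 to 25 kb, and the median enrichment was lowest at 2.5 to 5 kb in both lists.

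The closest member lay 2500 bp upstream of Rnf213, with a summit pileup of 13 in WT and 16 in KO, and the closest shared intergenic peak outside lay at 2499 bp with the same pileups. The farthest member, upstream of Cypt12, lay at 99993 bp with a pileup of 11 in both lists, and the next shared peak beyond lay at 100017 bp with 28 in both. The smallest overlap of a member with its WT peak was 7 bp, and 12 members overlapped by under 50 bp. Among the 1898 KO peaks of the same position class that missed the WT list, the closest lay 6 bp from a WT peak. Their median fold enrichment was 5.08, below the 7.67 of the members.

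Sites were weaker and narrower than promoters in both lists. The authors' fold enrichment at the summit had a median of 6.62 in WT, with quartiles of 5.19 and 8.39, whereas the KO median was 7.67, between quartiles of 5.91 and 10.0. Shared promoter peaks had medians of 8.16 and 9.61, and shared intronic distal peaks 6.45 and 7.53. The summit pileup, the number of fragments or reads stacked at the summit, was recovered from the deposited values and had a median of 18 in WT and 19 in KO at the members. Its highest member value was 192 in WT and 238 in KO, and its lowest was 6 in either list. Members had median widths of 597 bp (WT) and 588 bp (KO), beside 949 and 925 bp at promoters. The KO peak was the wider of the pair at 2533 members and the narrower at 2441, and the median log2 KO to WT width ratio was 0.0097 (95% CI -0.0041 to 0.024). Single widths nevertheless differed considerably, with an SD of 0.64 on the log2 scale.

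Signal at the sites was slightly higher in the KO list. The KO to WT ratio is the ratio of the summit pileups, each divided by the genome-wide background of its list (1.19 in WT and 1.13 in KO), on the log2 scale. On this scale equal pileups give 0.09. The median ratio of the members was 0.21 (95% CI 0.19 to 0.22), or 1.15-fold, and 67.3% of them lay above 0. So did 64.9% of all shared peaks, 68.8% of intronic distal peaks and 61.3% of promoters. Sites with equal pileups count as above 0 in these shares. Over all 28978 shared peaks the median was 0.16, at intronic distal peaks 0.22 (95% CI 0.21 to 0.24) and at promoters 0.09 (95% CI 0.09 to 0.10). The SD over sites was 0.45 at the members, 0.45 at intronic distal peaks and 0.37 at promoters. These intervals cover counting over sites only, and with 1 list per genotype a difference between genotypes and a difference between libraries cannot be told apart.

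A site was called higher or lower in KO when its ratio lay at least 1.5-fold from the median of all shared peaks. Among members 508 were higher, or 10.2% (95% CI 9.38 to 11.1), beside 7.74% of all shared peaks. A further 435 were lower, or 8.72% (95% CI 7.97 to 9.54), beside 8.46% of all shared peaks. Intronic distal peaks had 11.2% higher and 7.94% lower, and promoters 3.45% higher and 8.25% lower. The order of the 2 shares depended on the measure and on the threshold. With the authors' fold enrichments in place of scaled pileups, 3.97% of members were higher and 7.44% lower, and with scaled pileups and a 2-fold threshold 1.34% were higher and 1.36% lower. For these settings no share over all shared peaks is given, so they do not set the members against other peaks. With scaled pileups and the 1.5-fold threshold the share lower was close to the background, and the share higher lay nearer to that of the other distal peaks than to that of promoters. Depth moved with these shares, and its part in them was not tested. Among the 1081 members with a summed pileup of at least 60, 6.85% were higher and 3.52% lower, beside 4.19% and 3.83% of all shared peaks of that depth, and the SD fell from 0.49 at a summed pileup of 25 to 35 to 0.33 at 80 and more. The exact binomial interval of the single ratio lay above the median of all shared peaks at 105 members (2.11%, beside 2.02% of all shared peaks) and below it at 64 (1.28%, beside 1.87%).

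**Figure D2:**
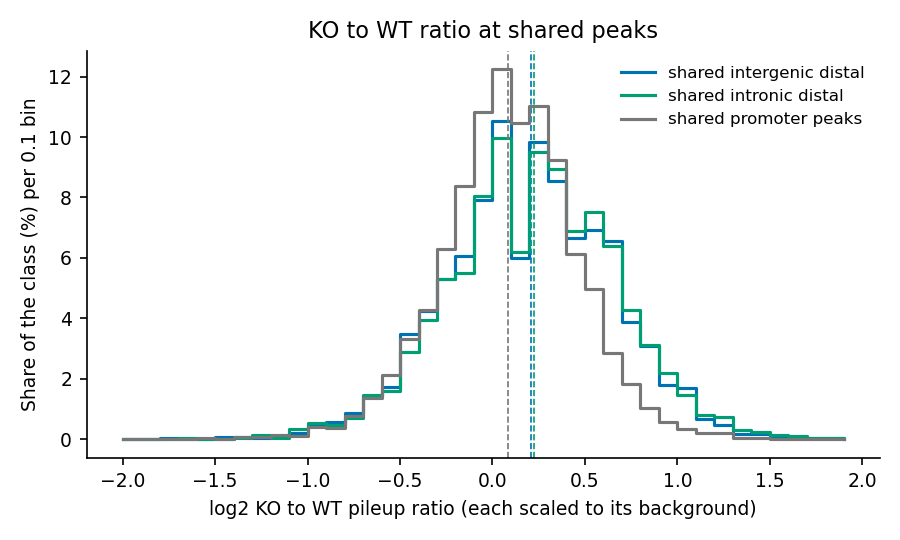
Distribution of the log2 KO to WT pileup ratio in bins of 0.1 for shared intergenic distal, shared intronic distal and shared promoter peaks, as percent of each class, with the median of each class as a dashed line. Both distal classes centre near 0.2 and are broader than the promoters, which centre at 0.09.

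Letters of 5 motifs were concentrated at the summits. The PU.1 letters GAGGAAGT occurred in 8.92% of the 200-bp windows (445 sites). In bins of 50 bp, the share was 3.07% within 50 bp of the summit and 0.341% at 500 to 1000 bp, a 9.0-fold difference. The RUNX letters TGTGGTT stood in 650 windows and were 3.28 times as frequent at the centre as in the flanks. The same ratio was 4.31 for the ETS letters CCGGAAG (3.53% of windows), 4.04 for the CTCF letters AGGNGGCGC or AGGNGGCAG (7.86%) and 2.12 for the AP-1 letters TGANTCA (10.4%). These are the letters of factor families known to open or hold distal sites in blood cells.

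Most other letters showed little or no concentration. The GATA letters AGATAA or TGATAA were present in 17.8% of windows, but at 4.94% per bin near the summit and 5.32% in the flanks. The SCL E-box CAGATG (14.9% of windows) had a centre to flank ratio of 0.945, the C/EBP letters TTGCNNAA (9.18%) 1.09, the MEIS letters CTGTCA (748 windows) 1.20, the HOX-PBX letters TGATTTAT (1.06%) 1.28 and the KLF letters CCACACCC (2.29%) 1.45. The CREB letters TGACGTCA and the NRF1 letters GCGCATGCG were 4.57 and 5.33 times as frequent at the centre, but stood in only 33 and 13 windows. A match to such short letters is not a bound site, and a missing match says nothing of the factor. The centre to flank ratios of this and the preceding paragraph were not adjusted for base composition. Median GC was 47.5% at sites with GATA letters and 51.5% at sites without them. A low ratio therefore cannot show that the sites of a factor were not concentrated. All motifs were searched on both strands, and TGATAA and TGANTCA share their first letters.

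**Figure D3:**
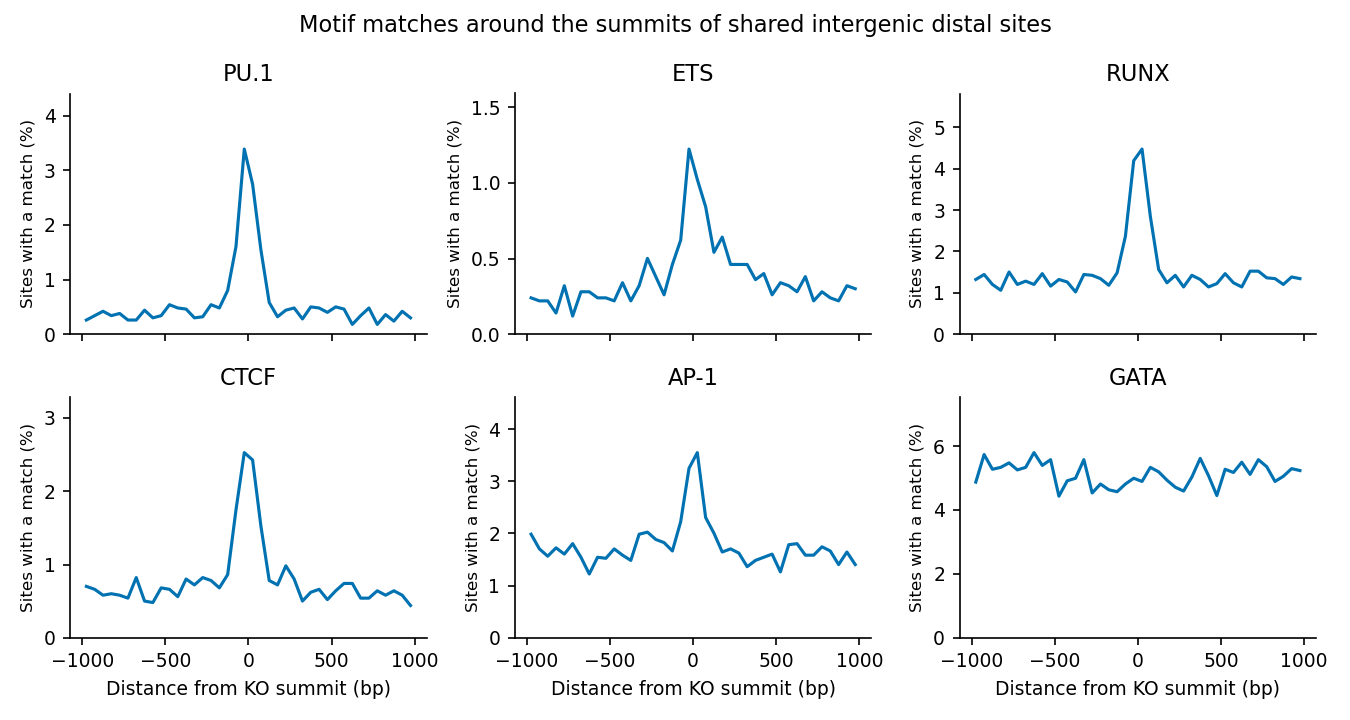
Percent of the 4988 sites with a match in bins of 50 bp, against the distance from the KO summit in bp, for 6 motifs on separate vertical scales that start at 0. PU.1, ETS, RUNX, CTCF and AP-1 letters peak at the summit, and the GATA letters are flat at about 5%.

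Compared with intronic distal peaks, the members held more CTCF and ETS letters and fewer GATA letters. CTCF letters stood in 7.86% (95% CI 7.14 to 8.64) of intergenic and 4.92% (95% CI 4.44 to 5.45) of intronic windows. ETS letters stood in 3.53% (95% CI 3.05 to 4.08) against 2.14% (95% CI 1.83 to 2.51), and GATA letters in 17.8% (95% CI 16.8 to 18.9) against 20.4% (95% CI 19.4 to 21.3). PU.1 letters were found in 8.92% and 10.2%, and RUNX letters in 13.03% and 14.6%. At promoters the order was different, with ETS letters in 13.6%, CTCF in 8.53%, PU.1 in 2.47% and RUNX in 2.55%. The 1895 shared peaks classed as gene desert had a median distance of 202880 bp to the nearest coding start site. They held CTCF letters in 4.64%, ETS letters in 1.79% and GATA letters in 24.01%. This class thus did not share the contrast of the members with intronic distal peaks. Over all shared peaks the shares were 13.1% for GATA, 6.53% for PU.1, 7.18% for ETS, 9.14% for RUNX, 7.58% for AP-1 and 7.12% for CTCF.

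Most sites held 1 or none of 6 selected motifs. Of 6 motifs (GATA, PU.1, RUNX, C/EBP, AP-1 and CTCF), 2384 sites held none, 1948 held 1, 572 held 2, 78 held 3 and 6 held 4. GATA and RUNX letters met at 121 sites, GATA and PU.1 at 90 and PU.1 and RUNX at 60. Whether these counts differ from those of independently placed motifs was not tested. The window upstream of Itgam was among the 6, with PU.1, AP-1, GATA and RUNX letters. Stronger sites held more RUNX letters. In 5 groups of equal size, from the weakest to the strongest KO fold enrichment, the share was 9.22%, 13.2%, 13.5%, 14.5% and 14.6%. GATA letters stayed between 17.5% and 18.2% in all 5 groups.

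The KO to WT ratio differed little between sites with and without most motifs. The widest gap among motifs found at 100 or more sites was for PU.1, the ETS factor that drives myeloid differentiation. Its 445 sites had a median ratio of 0.29 (95% CI 0.24 to 0.35), against 0.20 (95% CI 0.19 to 0.21) at the sites without it, and 13.5% of them were called higher and 6.74% lower, against 9.86% and 8.91% without it and 7.74% and 8.46% of all shared peaks. The difference of the medians was 0.09. It was 0.10 among sites whose −log10 q reached 10 in WT and in KO alike, 0.07 at summed pileups of at least 60, and 0.05 with the authors' fold enrichments in place of pileups. The median summed pileup was 38 with and 37 without the motif, and the part of depth in the gap was not tested. Sites with RUNX letters had a median of 0.21, with GATA letters 0.22, with C/EBP letters 0.21, with AP-1 letters 0.24 and with CTCF letters 0.19, each with an interval that held the median of all members.

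CpG-rich members stood apart. These were 503 sites, or 10.1%, with at least 50% GC and a CpG observed to expected ratio of at least 0.6 in the 200-bp window. The same criteria were met by 2.99% of intronic distal peaks and 75.3% of promoters. The CpG-rich sites were wider than the other members (725 against 575 bp in KO). Of them 115 (22.9%) lay within 1 kb of an annotated transcript start, of any gene type, outside the set of coding start sites. This held for 4.77% of the other members. ETS letters stood in 8.15% of them against 3.01%, CTCF letters in 12.3% against 7.36%, PU.1 letters in 2.78% against 9.61% and RUNX letters in 3.58% against 14.1%. Their median ratio was 0.09 (95% CI 0.09 to 0.14), the value of the promoters, against 0.22 (95% CI 0.20 to 0.23) at the other members. Of them 6.16% were called higher and 7.16% lower, near the 7.74% and 8.46% of all shared peaks.

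Part of the sites coincided with gene starts that the annotation used for the rule does not hold or does not count as coding. In the RefSeq annotation of the same assembly, 426 sites (8.54%, 95% CI 7.80 to 9.35) had a gene start of any kind within 500 bp, against 1.66% of intronic distal peaks. Of these, 232 were near a long noncoding RNA and 69 near a RefSeq coding gene. A further 67 were near a tRNA gene, of 386 tRNA genes on the autosomes, whereas 4 intronic distal and 21 promoter peaks were. Transfer RNA genes are transcribed by RNA polymerase III from promoters inside the gene. The 67 sites were looked for after the data had been seen. They included all 6 sites of Trim27. Of the 67, 20 lay on chromosome 13, where Trim27 is located.

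Sites beside tRNA genes did not share the higher KO signal of the other members. Their median pileup was 28 in WT (7 to 88) and 26 in KO (8 to 96), and the median ratio was -0.02 (95% CI -0.07 to 0.09). Of the 67, 1 was called higher and 10 (14.9%) were called lower, beside 7.74% and 8.46% of all shared peaks, and 21 lay above the median of all shared peaks. The tRNA-associated peaks of the promoter class had a median of 0.25 (95% CI 0.04 to 0.36, n = 21), so low ratios were not seen at tRNA genes throughout. The sites were broad, with median widths of 1075 bp (WT) and 1059 bp (KO). The central 32 bases occurred elsewhere on the autosomes at 11 of them, where reads of the copies could not be told apart. Without those 11 the median was 0.03. The lowest value was at a lysine tRNA gene, n-TKctt16, upstream of Hfe2, with a pileup of 39 in WT and 12 in KO, but its WT summit lay 988 bp away, and the same WT peak was also paired with a second KO peak (28 in KO) beside another tRNA gene. The Hfe2 window printed above holds the B box letters GGTTCGA of the internal promoter, in capitals and on the minus strand. These letters stood in 29 of all member windows (0.581%), of which 17 were beside tRNA genes, and in 0.213% of intronic distal and 0.909% of promoter windows.

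**Figure D4:**
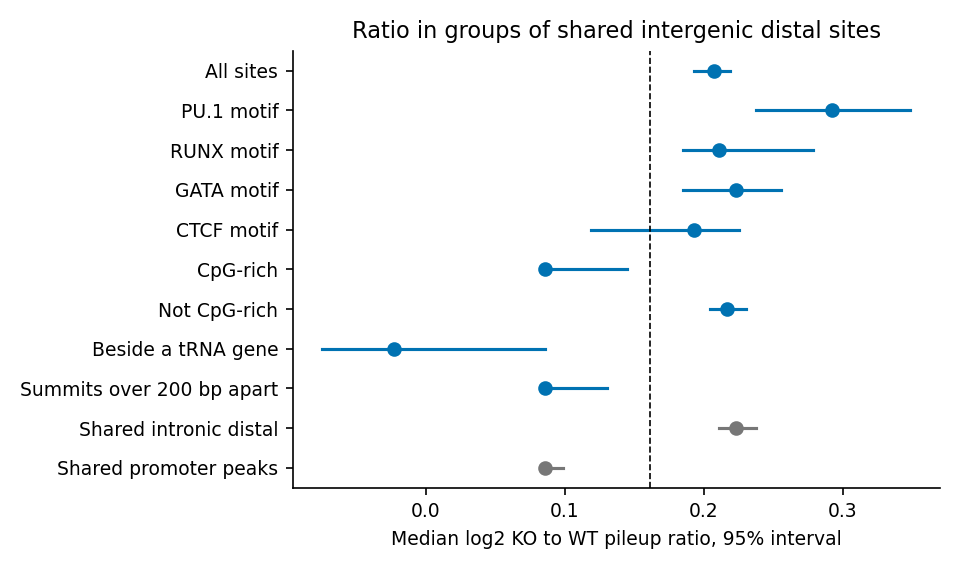
Median log2 KO to WT pileup ratio with its 95% interval (horizontal axis) for all shared intergenic distal sites and groups of them (blue), and for shared intronic distal and promoter peaks (grey), with the median of all shared peaks as a dashed line. Sites with PU.1 letters lie highest at 0.29, CpG-rich sites lie with the promoters at 0.09, and sites beside tRNA genes lie lowest at -0.02.

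KO and WT summits mostly coincided. The median distance between them was 41.5 bp, and 75.2% of members had summits within 100 bp. At the 645 members with summits more than 200 bp apart, 18.4% were called lower and 7.60% higher, against 6.13% and 10.6% at the 1860 members with summits within 25 bp. Of all shared peaks, at any distance between summits, 8.46% were called lower and 7.74% higher. For all shared peaks no share by summit distance is given, so these values do not set the members apart from other peaks. The widely separated pairs had wider WT peaks (median 777 bp), and their ratios compare different positions. Distance from the start site, by contrast, made little difference, with medians of the ratio between 0.15 and 0.22 in the 5 distance bins.

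The strongest sites were in part near copies of each other. The 10 members with the highest KO fold enrichment, 19.4 to 23.8, ranked at percentile 99.8 or higher among all KO peaks on the autosomes. Their nearest coding genes were Gm15319, Riok2, Ybx3, Gm15446, 6720489N17Rik, Zfp960, Nmd3, 4930467E23Rik, Rfpl4 and Mrgprb5. The top site, upstream of Gm15319 (chr8:20424355-20424945), had a fold enrichment of 22.0 in WT and 23.8 in KO with pileups of 100 and 74. The site beyond Riok2 had pileups of 167 in WT and 184 in KO, and that near Zfp960 had 149 and 184. These sites lay 80.1 and 59.2 kb upstream of the respective genes on chromosome 17 and were 93.0% identical over 200 bp. They were the closest pair among the 10 when the windows were compared on the plus strand. That comparison does not see inverted copies. Much of the Gm15319 window matched the 4930467E23Rik window on the opposite strand. Reads can be assigned to the wrong member of such a pair. At 8 of the 10 sites the central 32 bases occurred nowhere else on the autosomes, and at the Riok2 and Mrgprb5 sites they occurred at 1 further place. Ybx3 encodes a Y-box nucleic acid binding protein, and its site 34.7 kb downstream of the start (chr6:131352984-131354624) rose above its surroundings 13.9-fold in WT and 20.9-fold in KO. The 10 sites were picked by their KO enrichment, a choice that favours values higher in KO than in WT.

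The sites with the largest ratios among the 1081 with a summed pileup of at least 60 were named by rule. The highest was downstream of Thnsl1, a threonine synthase-like gene (chr2:21222721-21223691), with a pileup of 25 in WT and 70 in KO. Its ratio was 1.57 (95% CI 0.89 to 2.29), the summits were 6 bp apart and 74% of its central 200 bp was marked as repeat in the reference. Next came a site upstream of Pogk (24 in WT, 53 in KO, ratio 1.23), one 17.1 kb upstream of Rasgrf1, a Ras exchange factor, with PU.1 letters (22 and 46, ratio 1.15), one upstream of Hpse, the heparanase gene (20 and 41, ratio 1.12), and one downstream of Pcp4, a calmodulin regulator (21 and 43, ratio 1.12). All 5 were picked for their ratios, so that their intervals are a description.

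At 4 of the 5 sites with the lowest ratios, the WT and KO summits lay more than 200 bp apart. They were found upstream of the phosphatase gene Dusp26 (48 in WT, 17 in KO, ratio -1.41), of Pam, whose enzyme amidates peptides (52 and 23, ratio -1.09), of the guanylate-binding protein gene Gbp5 (56 and 26, ratio -1.02), of Rxrg, a retinoid X receptor (49 and 25, ratio -0.89), and downstream of the cadherin gene Cdh26 (41 and 21, ratio -0.88). The summits of the pair were 1704 bp apart at Dusp26, 1357 bp at Cdh26, 1278 bp at Pam and 218 bp at Gbp5, but 32 bp at Rxrg. With summits within 100 bp, a limit set after these values were seen, Rxrg remained the lowest, followed by sites at Vps18 (39 and 23, ratio -0.68), Scarb1 (39 and 23, ratio -0.68), Ccser2 (49 and 29, ratio -0.67) and Hfe2 (65 and 39, ratio -0.65, apart from its tRNA genes). Under the same limit 4 of the 5 highest sites stayed, and Rasgrf1, with summits 217 bp apart, gave way to Gm2a (21 and 43, ratio 1.12). The Rxrg window held PU.1, AP-1 and SCL E-box letters and the Rasgrf1 window PU.1 letters.

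In all, 3443 coding genes, or 16.6% of 20722, were the nearest coding gene of at least 1 site. Of these, 1003 had 2 or more sites, which held 51.1% of the members, and 43 had 5 or more. Sites lay a median of 39764 bp from the next member, and 21.9% had another member within 10 kb. The nearest start site had a promoter peak in both lists (a summit within 1 kb) at 59.6% of sites (95% CI 58.2 to 60.9), beside 51.3% of all coding start sites. By gene, 69.9% (95% CI 68.3 to 71.4) of the nearest genes and 55.04% (95% CI 54.3 to 55.8) of coding genes nearest to no site had such a peak at any start site. The share was 67.5% for genes with 1 site, 75.2% with 2, 74.3% with 3 or 4 and 88.4% (38 of 43) with 5 to 7. Sites near a start site with a promoter peak had a median ratio of 0.22, and sites near one without it 0.19.

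The genes with the most sites held 6 or 7 each. Those with 7 included the chromatin remodeler genes Chd2 and Chd7, Irf2bpl, Rgs1, a regulator of G protein signaling, Azin1, which promotes polyamine synthesis, Zfp217, Cpn2 and the transcription factor gene Runx3. With 6 came the lysosomal trafficking gene Lyst, the nuclear lamina gene Tmpo, Trim27, the sorting nexin Snx5, the sphingosine-1-phosphate receptor gene S1pr1 and Ddit4, an inhibitor of mTORC1. Relative to the eligible sequence for which each was the nearest gene, Snx5 had 14.8 sites per 100 kb, Trim27 10.6, Ddit4 10.6 and Chd2 9.50, whereas S1pr1 had 3.35 and Chd7 4.35.

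Ratios of single sites varied within these groups. Several calls rest on low pileups, and the part of counting error in the variation was not tested. Of all shared peaks, 7.74% were called higher and 8.46% lower. The 7 sites of Chd2 (chr7:73426638-73541830) all lay upstream of it, at 17.0 to 86.6 kb. Their summed pileup was 336 in WT and 385 in KO, and the single ratios ran from -0.74 to 0.44. At Snx5, 2 sites with PU.1 letters were higher in KO, one 23.1 kb (31 in WT, 49 in KO) and one 25.0 kb (20 and 40) downstream of the start site. Farther downstream, 3 others were called lower in KO, with pileups of 42 and 29, 26 and 17, and 25 and 11. At Tmpo, 1 of the 6 sites was called higher (10 and 22) and 2 were called lower (15 and 9, and 15 and 10). At Irf2bpl, 2 of 7 were higher and none was lower, with ratios of -0.04 to 1.09. At Rgs1, 1 of 7 was higher (12 in WT, 26 in KO). Runx3 had 2 lower sites and none higher, at pileups of 9 to 18. Azin1, Zfp217, Cpn2, S1pr1 and Trim27 had no called site in either direction.

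Most of the gene lists held more sites per Mb than coding genes at large, and the lymphoid list did not. This was not particular to lists of blood genes. The cell cycle and the immediate early and AP-1 lists had higher values than the stem cell and myeloid lists. Among 24 stem cell transcription factor genes, 13 (54.2%) were nearest to a site, with 27 sites or 21.1 per Mb of eligible sequence, beside 16.6% and 9.14 per Mb for all coding genes. The values were 13 of 21 genes and 24.6 per Mb for immediate early and AP-1 genes, 7 of 15 and 25.6 per Mb for cell cycle genes, 10 of 26 and 22.0 per Mb for myeloid genes, 8 of 18 and 16.3 per Mb for cytokine receptors and surface markers, 4 of 20 and 14.3 per Mb for megakaryocyte and erythroid genes, and 4 of 20 and 7.94 per Mb for lymphoid genes. Genes of other tissues, a comparison list, had 3 of 20 and 4.18 per Mb, at Neurod1, Snap25 and Olig2. Some genes were in more than 1 list, and a few genes set each value.

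The sites of the stem cell transcription factor genes had a median ratio of 0.33, beside 0.21 over all members. Of the 27, 1 was called higher and 2 lower, no larger a share than the 7.74% and 8.46% of all shared peaks, and 25 of the 27 intervals held the median of all shared peaks. All 4 sites of Fli1, an ETS factor gene, lay upstream and above that median. The strongest, 13.7 kb upstream (chr9:32555818-32556665), had a pileup of 50 in WT and 79 in KO (ratio 0.75, 95% CI 0.22 to 1.29), and the others had 22 and 30, 11 and 17, and 14 and 22. Etv6, which encodes an ETS repressor, had 3 sites at 58.2 to 74.8 kb upstream with ratios of 0.37 to 0.79 at pileups of 8 to 22. Lmo2, whose product bridges SCL and GATA factors, had 4 sites within 51.2 kb upstream with both directions. The site 12.1 kb upstream had 27 in WT and 41 in KO, and of a close pair that shared a single WT peak (pileup 21) one KO peak had 29, with RUNX, C/EBP and E-box letters, and the other 15. The single sites of Runx1 (24 in WT, 15 in KO) and Gata2 (10 and 13) had intervals that held 0.

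The lowest ratio of all members was at Hlf, a stem cell factor gene, 53.2 kb downstream of its start (28 in WT, 7 in KO, ratio -1.91, 95% CI -3.35 to -0.69). The KO peak was 390 bp wide and lay inside a WT peak of 2470 bp whose summit was 347 bp away. The other Hlf site, 27.2 kb upstream, had 43 in WT and 51 in KO with summits at the same base. Upstream of Gata2 5 further sites were nearest to Rpn1, 61.6 to 119 kb from the Gata2 start, a region known to hold a distal Gata2 enhancer. They were looked at after their values were seen. The site 77.1 kb upstream had 16 in WT and 15 in KO, and the remaining 4 had 32 and 24, 31 and 24, 20 and 28, and 16 and 15.

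**Figure D5:**
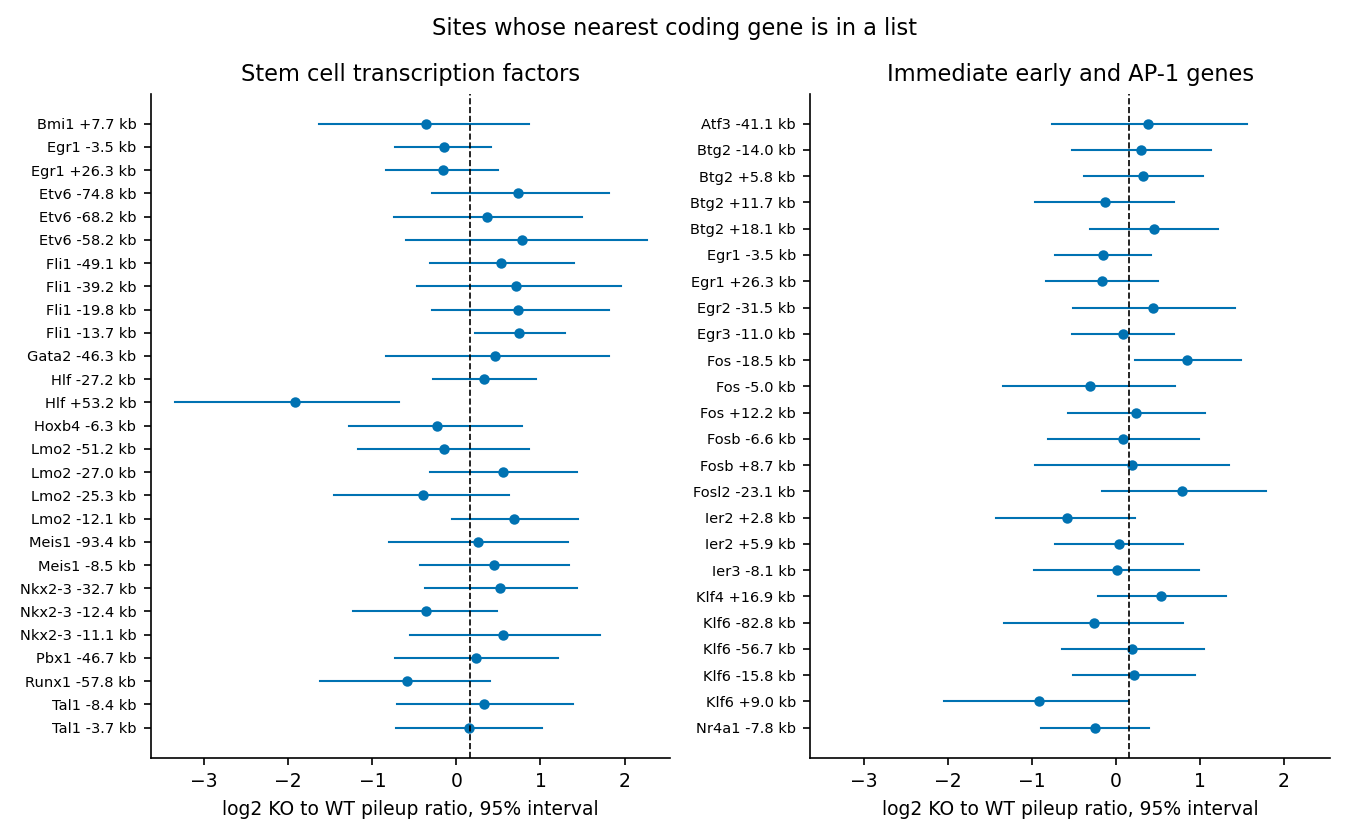
The log2 KO to WT pileup ratio with its exact 95% binomial interval for each site whose nearest coding gene is a stem cell transcription factor gene (left, 27 sites) or an immediate early or AP-1 gene (right, 24 sites), labelled by gene and position relative to the start site in kb (minus, upstream), with the median of all shared peaks as a dashed line. All Fli1 and Etv6 sites lie to the right of the line, the Hlf site at 53.2 kb lies farthest left, and 25 of 27 intervals (left) and 22 of 24 (right) cross the line.

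Sites of myeloid genes had a median ratio of 0.52 over 13 sites. Of these, 2 were higher and none lower, beside 7.74% and 8.46% of all shared peaks. All 13 intervals held the median of all shared peaks. Above that median lay 7 of the 13 sites, beside 2715 of all 4988 members. Cebpa, a transcription factor gene required for granulocyte development, had 3 sites. They lay 20.3 kb upstream (17 in WT, 23 in KO), 5.7 kb downstream (18 and 31, ratio 0.87, 95% CI -0.01 to 1.79) and 8.0 kb downstream (24 and 36) of the start site, and all had more signal in KO. Of 2 sites of Itgam, which encodes the myeloid integrin chain CD11b, the one 13.7 kb upstream (chr7:128048781-128049217) had 27 in WT and 44 in KO (ratio 0.79, 95% CI 0.07 to 1.54) and the one 3.3 kb upstream had 10 and 9. Cebpe had a site with 45 in WT and 32 in KO, Csf2ra one with 22 and 30, Klf4 one with 27 and 37, and S100a9, S100a6, Tyrobp and Csf1r had ratios between -0.07 and 0.13. The Fcgr3 site (20 and 28) lay beside a tRNA gene. Cebpa, Itgam, Tyrobp and S100a6 are among the genes that the study names as higher in KO cells, so their 7 sites, with a median of 0.52, are not independent evidence. Of these 7, 4 lay above the median of all shared peaks. The named genes lower in KO had 3 sites, 2 of Egr1 (59 and 50, 44 and 37) and 1 of Mt1 (30 and 29).

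Immediate early and AP-1 genes, which respond to signals within minutes, had sites in both directions. Their 24 sites had a median ratio of 0.14, with 2 higher and 2 lower, beside 7.74% and 8.46% of all shared peaks. Fos had one 18.5 kb upstream with 36 in WT and 61 in KO (chr12:85455009-85455740, ratio 0.85, 95% CI 0.23 to 1.48) and 2 others with 21 and 16 and with 26 and 29. Fosl2 had 16 in WT and 26 in KO, and Klf6 had 4 sites, of which the one 9.0 kb downstream had 24 in WT and 12 in KO. The 4 sites of Btg2, an antiproliferative gene, had ratios of -0.13 to 0.45. Nr4a1, Egr3 and Atf3 had a single site each, with 49 and 39, 48 and 48, and 13 and 16.

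Surface marker and cell cycle genes had medians below 0, -0.09 over 13 sites and -0.18 over 11 sites. Of the former 1 was called higher and 4 lower, and of the latter none higher and 2 lower, beside 7.74% and 8.46% of all shared peaks. Every interval in both lists held the median of all shared peaks. Both Cd34 sites had less signal in KO (36 in WT and 24 in KO, and 20 and 12), as did Slamf1, which encodes the stem cell marker CD150 (15 and 10). Cxcr4, the receptor that retains stem cells in the marrow, had 4 sites, from 23 in WT and 16 in KO to 20 and 30, with its strongest at 76 and 60. At Tek, the angiopoietin receptor of HSCs, a site with adjacent GATA and PU.1 letters had 9 in WT and 19 in KO (ratio 1.16, 95% CI -0.05 to 2.49). The 3 sites of Ccnd1 (18 and 15, 21 and 13, 16 and 12) and the 2 of Cdk6 (18 and 10, 13 and 11) had less signal in KO, whereas Mki67 had 50 and 65, and Cdkn1b had a site in each direction (28 and 21, 61 and 76).

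Among megakaryocyte and erythroid genes, Car2, a carbonic anhydrase gene, had 4 sites. The one 5.7 kb upstream with PU.1 and C/EBP letters (chr3:14880362-14880764) had 19 in WT and 34 in KO (ratio 0.93, 95% CI 0.07 to 1.82), and the others had 18 and 21, 29 and 29, and 17 and 25. Hbb-bt, a beta-globin gene, had a site with 26 in WT and 27 in KO (ratio 0.14). Of the lymphoid genes, Lef1 had 1 site in each direction (22 and 14, 27 and 38), and Ebf1, Tcf7 and Dntt had a site each with 26 and 28, 24 and 22, and 15 and 18.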

How the data were processed

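ATAC-seq peaks of 2 WT and 2 KO samples were analysed from 1 list per genotype. Per the study's methods, the authors used Trim Galore for trimming, Bowtie2 for alignment (mm10), Picard to take out duplicate and mitochondrial reads, and MACS2, with no fragment model, for peaks. Versions and any pooling of replicates are not given in the sources used here. The deposited lists give each summit's fold enrichment, a linear ratio of pileup to local background, and −log10 p and −log10 q, all made by the authors' caller. Positions and −log10 q in the deposited summit lists were the same as in the peak lists.

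Pileup and background were solved from fold enrichment and −log10 p. Pileups came out whole (tolerance 0.001) at all but 3 WT and 5 KO peaks, none of them a member. The genome-wide background was the median of the 1000 smallest values. Read totals are unknown. Each KO peak was paired with the overlapping WT peak of nearest summit, and the ratio had no pseudocount. Single ratios have exact 95% binomial intervals, medians order-statistic and shares Wilson intervals. All of these cover counting error only. Sequence and annotation were GRCm38.p6, GENCODE M21 and RefSeq, of the authors' build. Eligible sequence was counted on a grid of 100 bp, leaving out unknown bases. The 13 motifs were searched in 200-bp windows. The scripts (Python 3.11.15, NumPy 2.4.6, pandas 2.3.3, SciPy 1.17.1) were tested on simulated data.

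Members, gene lists, motifs and tests were chosen with earlier results of these data known. Sites were named by rule: those of the 15 coding genes with most sites, the 10 with the highest KO fold enrichment, the 5 highest and 5 lowest ratios at a summed pileup of at least 60, and all sites nearest to a gene of the lists. Lists overlap. Some sites that this rule names are not reported here. Peaks on sex chromosomes were not analysed here. Alternatives covered the position limits, the overlap, the annotation, the −log10 q, the scaling and the motif window.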

Additional observations from a re-analysis of the deposited data

How the results depend on the processing

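No paired analysis was possible because both replicates of a genotype share 1 list, and for the same reason no replicate was left out. Of 66 recalculated values, 52 stayed within the main interval or, for the number of sites, within 1.5 times the main number (3739 to 5967). With a stricter limit, −log10 q at 10 or above in WT and KO, 2195 sites remained, of which 6.20% were called higher and 3.46% lower, and the median log2 width ratio was -0.0091. Where the overlap covered 0.5 or more of each peak, 7.65% were lower. With summits within 100 bp, the median log2 pileup ratio was 0.22 and 7.36% were lower. With raw pileups the median was 0.12. With the authors' fold enrichments it was 0.23, with 3.97% higher and 7.44% lower. A 2-fold call gave 1.34% higher and 1.36% lower. With start sites of gene records in place of transcripts, 65.1% of sites had a promoter peak at the nearest start site. Chosen after seeing the data, leaving out sites beside tRNA genes gave a median of 0.21, 10.3% higher and 8.64% lower, and leaving out sites with copied centres 0.21, 10.2% and 8.52%. The excess of higher over lower calls thus turned with the authors' fold enrichments and was absent with the 2-fold call. For these settings no share over all shared peaks is given. Of 39 recalculated motif shares, 27 moved, with GATA letters in 9.18% of 100-bp and 31.5% of 400-bp windows and C/EBP letters in 4.53% and 17.5%. Summit pileups, with a median of 18 in WT, limit the precision of single sites.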
